A study of Mus musculus with 11 samples.

Results

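The cadherin superfamily genes described here are 56 genes of the mouse genome measured on 11 gene expression arrays. They were chosen by name: every gene whose symbol is Cdh followed by a number, leaving out the endothelial cadherin Cdh5, or starts with Pcdh, and that has a probe set annotated to that symbol alone. They are 56 of 19938 genes with such a probe set. Where a gene had several probe sets, the brightest over all arrays stood for it. Of the 56 genes, 54 passed a filter on dim values and were tested among 16527 genes, and 40 lay above the 25th percentile of the array on all 11 arrays. The 2 that did not pass were Cdh17, the liver-intestine cadherin, with line means of 5.44 to 5.49 on the log2 scale, and Cdh19, with means of 5.37 in NesGFP and 4.19 to 4.50 in the other lines.

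Cadherins are calcium-dependent adhesion proteins that bind their like on the neighbouring cell. Classical type I and type II cadherins hold the actin skeleton through catenins and sort neurons into layers and synaptic partnerships. The non-clustered delta protocadherins guide axons and dendrites. The clustered protocadherins (alpha, beta and gamma) lie in tandem arrays of single exons from which each neuron chooses a few, and the resulting surface code lets a neuron tell its own branches from those of others. In the dentate gyrus, the hippocampal field that keeps adding granule neurons in the adult, cadherins have been studied in the anchoring of stem cells and in the synapses that granule cells make onto CA3.

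All arrays were hybridised with amplified RNA of green fluorescent cells. The cells were sorted from dentate gyri that had been microdissected, dorsal and ventral parts alike, from mice at postnatal day 35, with about 3000 to 5000 cells per group. The study compared reporter lines that mark different stages of granule neuron formation. NesGFP mice (3 arrays) express GFP from a Nestin transgene, which marks neural stem cells. In kiTbr2GFP mice (3 arrays) the reporter sits inside an allele of Eomes, which encodes the progenitor factor Tbr2, as a knock-in; the labels do not state whether the other allele was intact. In tgTbr2GFP mice (3 arrays) the reporter came from an Eomes transgene on a bacterial artificial chromosome. PomcGFP mice (2 arrays) carry GFP driven by the Pomc gene, a reporter of newborn granule neurons. All mice carried a GFP reporter and no line without one is among the samples. Whether different arrays hold different animals is not stated, so a p-value here reflects only array-to-array spread, part of which may be technical.

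Lists of cell type markers set the frame for the values below, as the mean log2 value of a list on each array. Intermediate progenitor genes ran from 8.89 to 9.53 in kiTbr2GFP and tgTbr2GFP and from 8.05 to 8.47 elsewhere, and granule neuron genes from 9.06 to 9.15 in PomcGFP and from 7.77 to 8.67 in the other lines. NesGFP also held markers of cells other than stem cells. Its endothelial list was at 9.62 to 9.75 against 6.18 to 7.15 on all other arrays, its mural list at 9.31 to 9.40 against 6.91 to 7.47, its astrocyte list at 10.22 to 10.31 against 7.96 to 8.98 and its oligodendrocyte list at 10.69 to 10.85 against 7.42 to 9.32. The oligodendrocyte precursor list was at 9.45 to 9.69 against 7.51 to 8.09 and the meningeal fibroblast list at 7.45 to 7.85 against 6.54 to 6.82. In the comparison of the Tbr2 lines with NesGFP, 10 of 10 endothelial, 9 of 10 mural, 10 of 10 astrocyte, 9 of 9 oligodendrocyte, 6 of 7 oligodendrocyte precursor and 4 of 7 meningeal fibroblast genes were lower, and 4 of 7 dividing-cell genes were higher. With 19.8% of all genes higher and 29.1% lower in this comparison, 4 of 6 Cajal-Retzius genes were higher too. That list was at 8.46 to 9.24 on the Tbr2 arrays, 7.37 to 7.72 in NesGFP and 7.28 to 7.56 in PomcGFP. The endothelial, mural, astrocyte, oligodendrocyte, oligodendrocyte precursor and meningeal fibroblast lists also had negative medians in PomcGFP against NesGFP. Of 7 dividing-cell genes, 2 were higher and 3 lower in that comparison (median -0.11), beside 15.9% and 24.0% of all genes. The part of all these markers in the cadherin results was not tested. The RMA values have no zero, and fewer cells of a type cannot be told apart from less RNA per cell.

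Across the 4 lines, 28 of the 54 tested genes differed by limma's moderated F test at a Benjamini-Hochberg adjusted p under 0.05, beside 43.4% of all genes. Against NesGFP, 19 genes were higher in the mean of the 2 Tbr2 lines, where 19.8% of all genes were, and 9 were lower, where 29.1% were (28 in either direction, 48.9% of all genes). From the Tbr2 lines to PomcGFP, 8 genes were higher, where 2.0% of all genes were, and 0 were lower, where 1.73% were (3.73% in either direction); 4 were lower at an unadjusted p under 0.05. In PomcGFP against NesGFP, 23 genes were higher and 6 lower, beside 15.9% and 24.0% of all genes (29 in either direction, 39.9% of all genes). Between kiTbr2GFP and tgTbr2GFP, 0 genes were higher in the knock-in and 2 were lower, beside 0.436% and 0.684% of all genes (1.12% in either direction); 2 were higher at an unadjusted p under 0.05. The median difference over the 54 genes was 0.16 for the Tbr2 lines minus NesGFP (all genes -0.02), 0.08 for PomcGFP minus the Tbr2 lines (all genes 0.02), 0.41 for PomcGFP minus NesGFP (all genes 0.00) and -0.06 for kiTbr2GFP minus tgTbr2GFP (all genes 0.02). All differences are on the log2 scale. Counted by arrays that do not overlap, 12 genes were higher and 5 lower in the Tbr2 lines than in NesGFP (16.4% and 25.3% of all genes), 10 higher and 2 lower in PomcGFP than in the Tbr2 lines (8.74% and 7.93%), and 29 higher and 8 lower in PomcGFP than in NesGFP (27.9% and 30.9%). The comparisons share arrays and are given side by side for each gene.

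**Figure D1:**
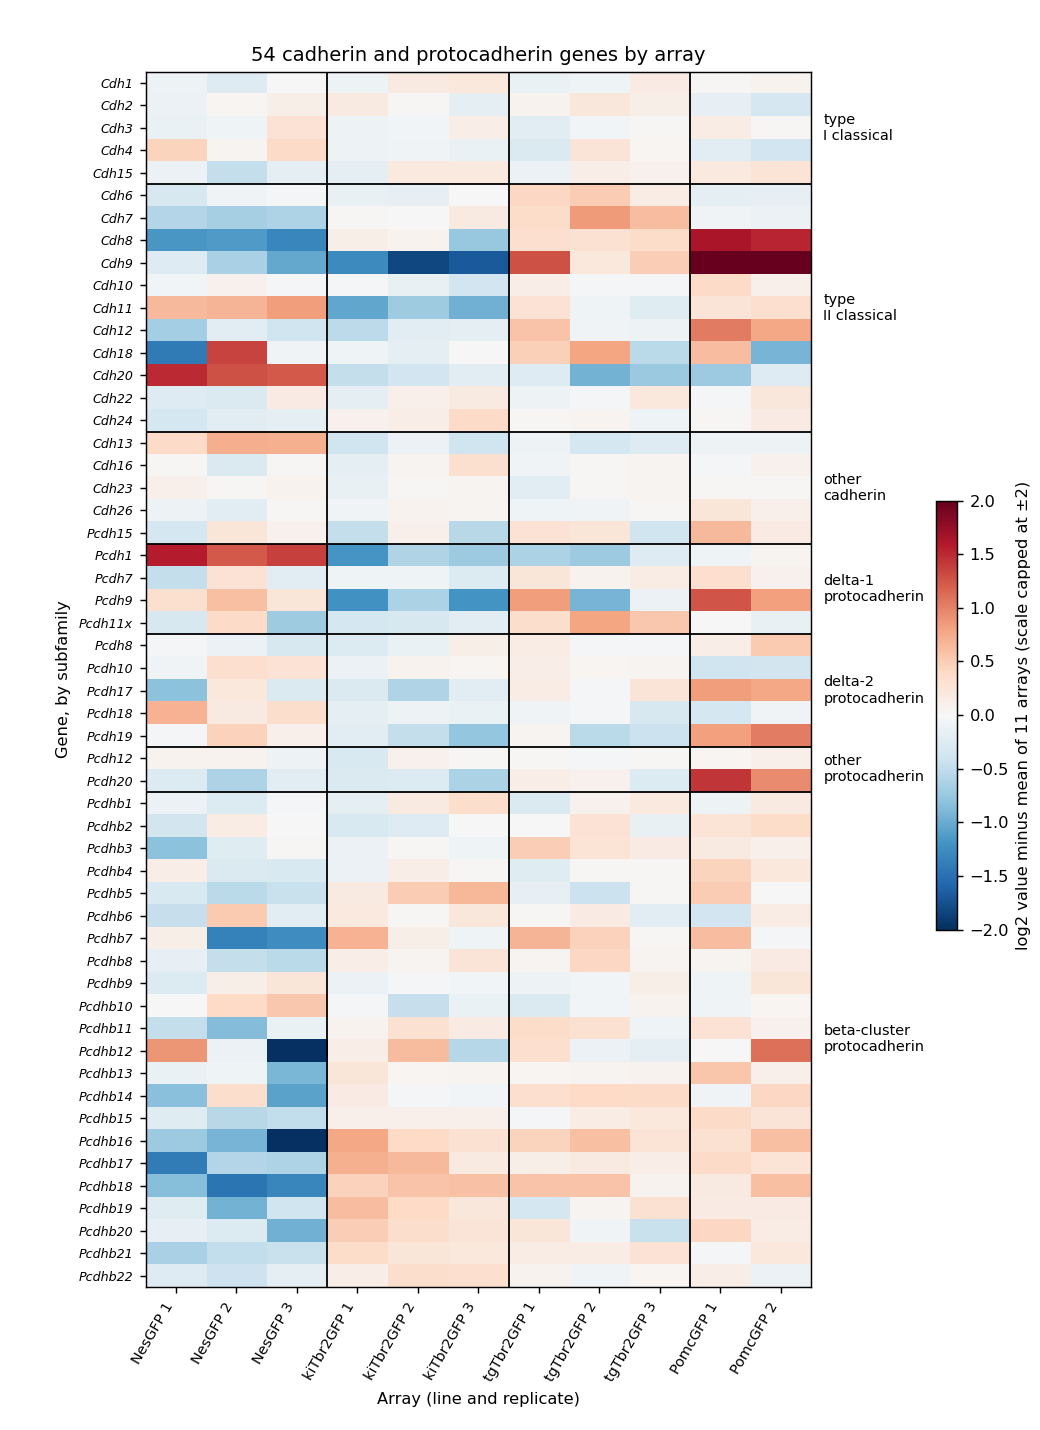
Log2 value of each of the 54 tested genes (rows, by subfamily) on each of the 11 arrays (columns, by line), minus the gene's mean over the 11 arrays; red is higher and blue lower, capped at 2 in either direction. Most beta-cluster genes are bluer on the 3 NesGFP arrays than on the others, Pcdh1, Cdh20 and Cdh13 are red there, and Cdh9, Cdh8 and Pcdh20 are red on the 2 PomcGFP arrays.

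The type II classical cadherins held the largest increase towards PomcGFP. Cdh9 (probe set 10423230), a type II cadherin known for its part in the synapse between granule cells and CA3 neurons, was at 9.49 and 9.51 on the PomcGFP arrays, 8.41, 7.35 and 7.63 on tgTbr2GFP, 5.85, 5.31 and 5.45 on kiTbr2GFP and 6.88, 6.48 and 6.12 on NesGFP. No array of a line overlapped another line, and the order was PomcGFP, tgTbr2GFP, NesGFP, kiTbr2GFP. All 3 kiTbr2GFP values were below the 25th percentile of their arrays, so no fold is given against that line and differences from it are read as lower bounds. PomcGFP was above the mean of the Tbr2 lines by at least 2.83 ± 0.26 (SE; limma adjusted p = 0.000215) and was 8.02-fold above NesGFP (3.00 ± 0.30, SE; limma adjusted p = 1.6e-05). The mean of the Tbr2 lines hid 2 different levels, and its difference from NesGFP was 0.17 ± 0.23 (SE; limma adjusted p = 0.562).

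Cdh8 (probe set 10580990), a type II cadherin of synaptic circuits, was at 7.03, 7.07 and 6.89 in NesGFP, 8.32, 8.27 and 7.45 in kiTbr2GFP, 8.54, 8.50 and 8.57 in tgTbr2GFP and 9.84 and 9.72 in PomcGFP. The levels formed 3 steps that did not overlap: NesGFP, then the Tbr2 lines, then PomcGFP. Both steps passed the test. The Tbr2 lines were 2.42-fold above NesGFP (1.28 ± 0.17, SE; limma adjusted p = 7.22e-05), and PomcGFP was 2.84-fold above the Tbr2 lines (1.50 ± 0.19, SE; limma adjusted p = 0.00141). Among the 54 genes Cdh8 was the only one called higher in both of these steps.

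Pcdh20, a protocadherin outside the delta and clustered groups (probe set 10421911), moved at the second step and not at the first. It stood at 7.96, 7.61 and 8.0 in NesGFP, 7.94, 7.95 and 7.60 in kiTbr2GFP, 8.37, 8.32 and 7.96 in tgTbr2GFP and 9.66 and 9.17 in PomcGFP. The PomcGFP arrays lay above all others, while the other 3 lines overlapped. PomcGFP was 2.62-fold above the Tbr2 lines (1.39 ± 0.17, SE; limma adjusted p = 0.00121), and the difference between the Tbr2 lines and NesGFP was 0.17, with a 95% interval of -0.16 to 0.50. Cdh9, Cdh8 and Pcdh20 were called higher in PomcGFP than in the Tbr2 lines under all alternatives run, and in PomcGFP against each Tbr2 line alone.

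The 250 bases before the start of these 3 genes are shown because their levels rose together in PomcGFP, with Cdh20 beside them as a gene highest in NesGFP. They come from RefSeq's table for GRCm38.p6, which held 22 of the 56 genes, and are written 5′ to 3′ on the gene's strand. Capitals mark E-boxes (CANNTG, the same on both strands), the core site of basic helix-loop-helix factors. The windows are chr15:16728665-16728914 on the plus strand for Cdh9, chr8:99416472-99416721 on the minus strand for Cdh8, chr14:88471397-88471646 on the minus strand for Pcdh20 and chr1:104768270-104768519 on the plus strand for Cdh20.

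Cdh9: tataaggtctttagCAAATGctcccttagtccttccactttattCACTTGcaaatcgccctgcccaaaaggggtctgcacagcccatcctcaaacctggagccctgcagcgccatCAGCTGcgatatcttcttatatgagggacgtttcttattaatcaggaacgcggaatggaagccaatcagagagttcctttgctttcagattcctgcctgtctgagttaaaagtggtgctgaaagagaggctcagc

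Cdh8: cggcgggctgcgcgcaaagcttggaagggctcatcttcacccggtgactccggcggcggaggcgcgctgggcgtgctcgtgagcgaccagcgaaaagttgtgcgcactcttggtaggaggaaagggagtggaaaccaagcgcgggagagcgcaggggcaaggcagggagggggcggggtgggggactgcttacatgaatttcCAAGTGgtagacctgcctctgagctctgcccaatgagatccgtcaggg

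Pcdh20: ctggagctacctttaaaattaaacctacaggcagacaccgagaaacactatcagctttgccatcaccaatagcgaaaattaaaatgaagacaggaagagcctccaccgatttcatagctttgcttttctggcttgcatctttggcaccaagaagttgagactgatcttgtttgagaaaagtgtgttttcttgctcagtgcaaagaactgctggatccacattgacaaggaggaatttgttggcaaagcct

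Cdh20: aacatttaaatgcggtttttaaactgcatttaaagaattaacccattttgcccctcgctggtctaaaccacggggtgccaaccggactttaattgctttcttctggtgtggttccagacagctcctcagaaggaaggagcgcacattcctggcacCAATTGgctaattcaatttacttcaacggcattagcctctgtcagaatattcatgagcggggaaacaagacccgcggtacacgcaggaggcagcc

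The Cdh9 window held 3 E-boxes, those of Cdh8 and Cdh20 1 each and that of Pcdh20 0, where 66.2% of 32851 mouse promoters of the same length held at least 1. The E-box variant CAGATG, searched on both strands and itself an E-box, was in 0 of the 4 windows and in 14.4% of all promoters. GC content was 48% for Cdh9, 64.4% for Cdh8, 42.4% for Pcdh20 and 47.6% for Cdh20, beside a median of 52.4% over all promoters. These are letter counts in a window, and no binding was measured.

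Cdh11 and Cdh20 were the type II cadherins that fell from NesGFP to the Tbr2 lines. Cdh11 (probe set 10581013), first known from osteoblasts and found in mesenchymal and glial cells, was at 8.92, 8.95 and 9.11 in NesGFP, 7.23, 7.57 and 7.32 in kiTbr2GFP, 8.57, 8.20 and 8.03 in tgTbr2GFP and 8.54 and 8.62 in PomcGFP. NesGFP was above all other arrays, kiTbr2GFP was below all others, and tgTbr2GFP and PomcGFP overlapped. The Tbr2 lines were below NesGFP by a factor of 2.26 (-1.17 ± 0.13, SE; limma adjusted p = 1.55e-05). PomcGFP was above the mean of the Tbr2 lines by 0.76 ± 0.15 (SE; limma adjusted p = 0.0151), a call that rested on the knock-in line: against tgTbr2GFP alone the difference was 0.31 (adjusted p = 0.621, the highest of its alternatives). Without PomcGFP replicate 1 or 2 that adjusted p was 0.122 and 0.17. Cdh20 (probe set 10348999) was at 9.65, 9.44 and 9.40 in NesGFP, at 7.68, 7.79 and 7.96 in kiTbr2GFP, at 7.91, 7.22 and 7.42 in tgTbr2GFP and at 7.44 and 7.90 in PomcGFP. NesGFP stood alone and the other 3 lines overlapped. The Tbr2 lines were 3.57-fold below NesGFP (-1.83 ± 0.16, SE; limma adjusted p = 2.69e-06) and PomcGFP 3.55-fold below it (-1.83 ± 0.20, SE; limma adjusted p = 4.01e-05). Between PomcGFP and the Tbr2 lines the Cdh20 difference was 0.01, with a 95% interval of -0.40 to 0.41.

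Cdh7, studied in migrating neural crest cells, was highest in tgTbr2GFP. Its values were 6.05, 5.97 and 6.01 in NesGFP, 6.65, 6.64 and 6.82 in kiTbr2GFP, 7.01, 7.48 and 7.25 in tgTbr2GFP and 6.56 and 6.51 in PomcGFP. The 4 lines did not overlap. In NesGFP Cdh7 was above the 25th percentile on 2 of 3 arrays, so folds against that line are read as lower bounds. Cdh7 was 1.95-fold above NesGFP in the Tbr2 lines (0.96 ± 0.11, SE; limma adjusted p = 2.1e-05) and 1.44-fold above it in PomcGFP (0.53 ± 0.14, SE; limma adjusted p = 0.0109); the latter call was lost without PomcGFP replicate 1 or 2 (adjusted p = 0.0712 and 0.0526, the former the highest of its alternatives). The step from the Tbr2 lines to PomcGFP was -0.44 ± 0.12 (SE; limma adjusted p = 0.0907). Cdh12, a type II cadherin of the brain, was at 5.45, 5.92 and 5.73 in NesGFP, 5.61, 5.91 and 5.94 in kiTbr2GFP, 6.70, 6.06 and 6.02 in tgTbr2GFP and 7.17 and 6.91 in PomcGFP. It was dim outside PomcGFP, where the 25th percentiles of the arrays were 5.90 to 6.20. Cdh12 was above that percentile on 2 PomcGFP arrays, 1 tgTbr2GFP array, 1 NesGFP array and 0 kiTbr2GFP arrays. Its differences from the dim lines are read as lower bounds. PomcGFP lay above all other arrays and was higher than the Tbr2 lines by 1.00 ± 0.19 (SE; limma adjusted p = 0.0148). Without PomcGFP replicate 1 or 2 the adjusted p was 0.211 and 0.0807, the former the highest of its alternatives.

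Of the other type II genes, Cdh24 was higher in the Tbr2 lines than in NesGFP by 0.36 (limma adjusted p = 0.00941). A second Cdh24 probe set was flat, with line means of 6.85 to 6.93, and with the mean of both probe sets the difference was 0.18 (adjusted p = 0.106, the highest of its alternatives). Cdh10 was bright on every array, from 9.48 to 10.25, and passed no comparison. Cdh6, Cdh18 and Cdh22 passed none of the 4 comparisons either, though Cdh6 passed the F test (limma adjusted p = 0.0141) and was higher in tgTbr2GFP alone than in NesGFP (0.50; limma adjusted p = 0.00761). Cdh18 varied more within lines than between them: its NesGFP arrays alone ran from 5.78 to 8.55. In all, 8 of 11 tested type II genes passed the F test, beside 43.4% of all genes. The median difference of these 11 genes was 0.17 for the Tbr2 lines minus NesGFP and 0.07 for PomcGFP minus the Tbr2 lines.

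**Figure D2:**
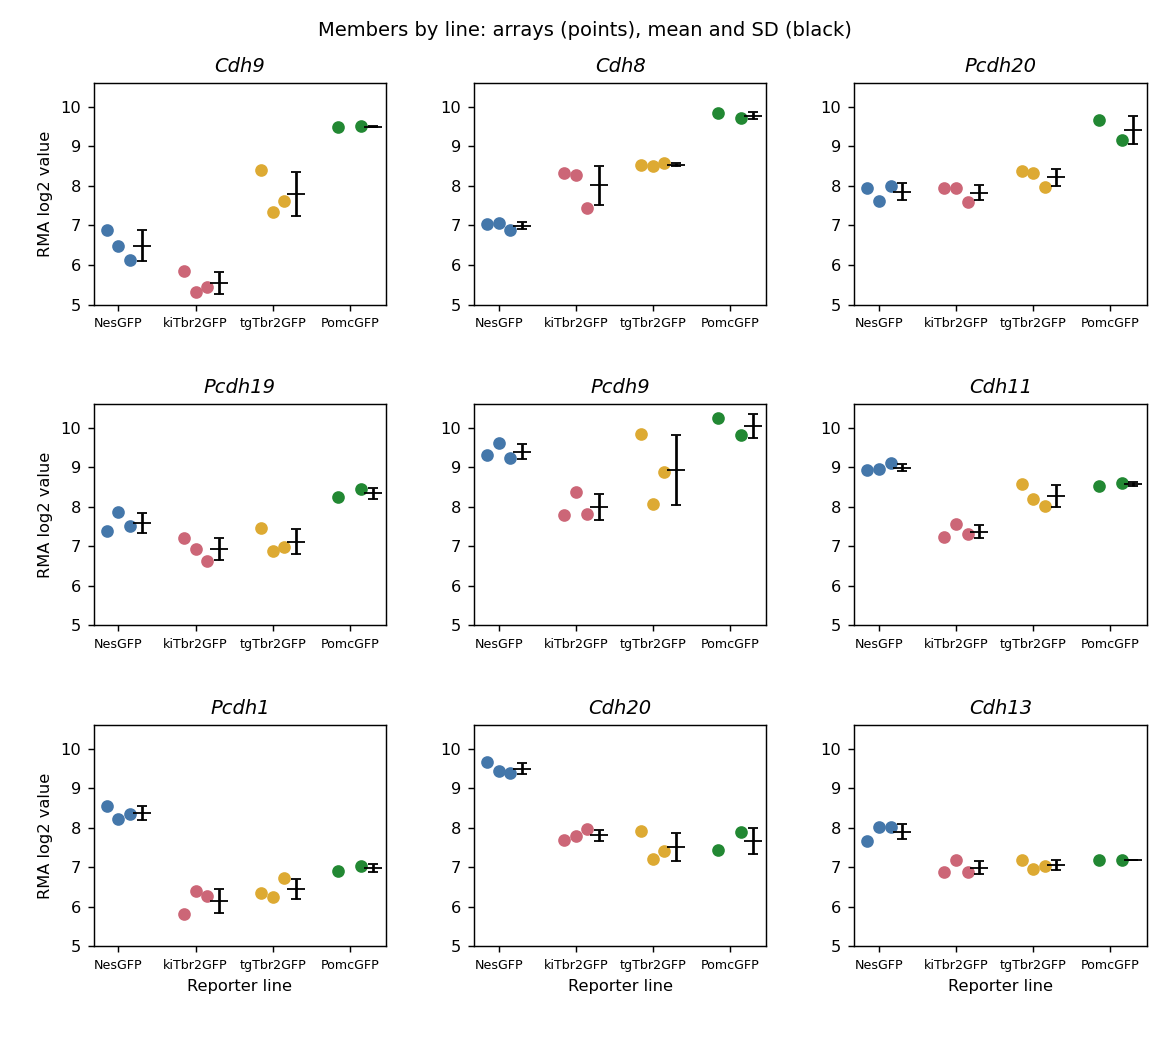
Log2 value of 9 genes on each array (coloured points) with the line mean and standard deviation (black bars), 3 arrays per line and 2 for PomcGFP. Cdh9, Cdh8, Pcdh20 and Pcdh19 are highest in PomcGFP, Cdh11, Pcdh1, Cdh20 and Cdh13 are highest in NesGFP, and Cdh9 and Cdh11 separate the 2 Tbr2 lines.

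Of the 5 type I classical cadherins, 0 passed limma's F test, beside 43.4% of all genes (2 at an unadjusted p under 0.05, Cdh4 and Cdh15). Cdh2, the N-cadherin of neural progenitor junctions and synapses, stayed between 9.04 and 9.60 on all 11 arrays. Its difference was 0.06 between the Tbr2 lines and NesGFP (95% interval -0.17 to 0.30) and -0.32 between PomcGFP and the Tbr2 lines (95% interval -0.59 to -0.05; limma adjusted p = 0.25). Cdh4, the R-cadherin of brain and retina, was at 8.45, 8.06 and 8.39 in NesGFP, 7.90, 7.94 and 7.88 in kiTbr2GFP, 7.72, 8.26 and 8.04 in tgTbr2GFP and 7.80 and 7.63 in PomcGFP. The PomcGFP arrays were below the NesGFP arrays, and the Tbr2 arrays overlapped both. Cdh4 was lower in PomcGFP than in NesGFP by a factor of 1.50 (-0.58 ± 0.17, SE; limma adjusted p = 0.0165); without PomcGFP replicate 2 the adjusted p was 0.125, the highest of its alternatives. In the Tbr2 lines against NesGFP it was also lower (-0.34; limma adjusted p = 0.0482), a call lost under 19 of 24 alternatives. Cdh15, the M-cadherin of muscle, was higher in the Tbr2 lines by 0.31 with overlapping arrays (limma adjusted p = 0.0494), a call lost under 16 of 23 alternatives. Cdh1 and Cdh3, the E- and P-cadherins of epithelia, lay between 6.05 and 6.56 and passed no test.

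Among the cadherins outside the classical groups, Cdh13 was the only one of 5 tested to pass any of the 4 comparisons. Cdh13 encodes T-cadherin, which is held in the membrane by a lipid anchor, has no cytoplasmic tail and is found in vessels as well as neurons. It was at 7.68, 8.01 and 8.01 in NesGFP, 6.89, 7.18 and 6.89 in kiTbr2GFP, 7.19, 6.95 and 7.03 in tgTbr2GFP and 7.19 and 7.20 in PomcGFP. NesGFP stood above all other arrays. The Tbr2 lines were lower by a factor of 1.84 (-0.88 ± 0.11, SE; limma adjusted p = 6e-05) and PomcGFP by 1.63 (-0.71 ± 0.15, SE; limma adjusted p = 0.0026). Cdh23 and Pcdh15, the partners of the tip link of hair cells, and Cdh16 and Cdh26 passed none of the 4 comparisons. At an unadjusted limma p under 0.05, Pcdh15 was higher in PomcGFP than in the Tbr2 lines (0.55). By the same measure Cdh26 was higher in PomcGFP than in NesGFP (0.27).

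The delta-1 protocadherins are Pcdh1, Pcdh7, Pcdh9 and Pcdh11x. Pcdh1 (probe set 10458534), also known from the airway epithelium, showed the largest decrease of the 54 genes from NesGFP to the Tbr2 lines. It was at 8.56, 8.22 and 8.36 in NesGFP, 5.81, 6.39 and 6.27 in kiTbr2GFP, 6.36, 6.26 and 6.73 in tgTbr2GFP and 6.91 and 7.05 in PomcGFP. NesGFP was highest, PomcGFP lay between, and the Tbr2 lines overlapped each other below. Of the 3 kiTbr2GFP arrays 2 were above the 25th percentile, so the fold for the Tbr2 lines is read as a lower bound. The decrease was 4.21-fold in the Tbr2 lines (-2.07 ± 0.15, SE; limma adjusted p = 6.98e-07) and 2.64-fold in PomcGFP (-1.40 ± 0.19, SE; limma adjusted p = 0.000172). PomcGFP minus the Tbr2 lines was 0.67 ± 0.17 (SE; limma adjusted p = 0.0576).

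Pcdh9 (probe set 10421932) was at 9.32, 9.61 and 9.25 in NesGFP, 7.80, 8.38 and 7.81 in kiTbr2GFP, 9.85, 8.08 and 8.89 in tgTbr2GFP and 10.26 and 9.83 in PomcGFP. The first tgTbr2GFP array stood apart from the others of its line and reached the NesGFP and PomcGFP range. The oligodendrocyte list was also highest on that array among the Tbr2 arrays, at 9.32 against 7.42 to 8.11 on the other 5, and was at 9.10 and 9.14 in PomcGFP; its part in the Pcdh9 values was not tested. Pcdh9 passed in the Tbr2 lines against NesGFP (-0.92 ± 0.30, SE; limma adjusted p = 0.0255) and in PomcGFP against the Tbr2 lines (1.58 ± 0.35, SE; limma adjusted p = 0.0296), with overlap in both. Against tgTbr2GFP alone neither comparison passed, with differences of -0.45 and 1.10 and adjusted p of 0.335 and 0.296, the former the highest of its alternatives. The second Pcdh9 probe set had line means of 8.63 in NesGFP, 7.57 in kiTbr2GFP, 8.37 in tgTbr2GFP and 9.29 in PomcGFP, in the same order as the first but with NesGFP and tgTbr2GFP closer together. Without PomcGFP replicate 1 or 2 the second call was lost (adjusted p = 0.314 and 0.132, the former the highest of its alternatives), and without NesGFP replicate 1 or 2 the first was (adjusted p = 0.0556 and 0.0911). Leaving out kiTbr2GFP replicate 1 or 3 ended both calls, at 0.0529 and 0.0534 for the first and 0.073 and 0.0681 for the second, and leaving out tgTbr2GFP replicate 3 ended the second, at 0.0633. Pcdh7 and the X-linked Pcdh11x passed none of the 4 comparisons, though Pcdh11x stood at 7.75, 8.18 and 7.93 in tgTbr2GFP and at 7.04 to 7.17 in kiTbr2GFP (limma adjusted p = 0.12). Pcdh11x passed the F test (limma adjusted p = 0.0282) and was higher in tgTbr2GFP alone than in NesGFP (0.77; limma adjusted p = 0.0158).

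All 5 delta-2 protocadherins passed in PomcGFP against NesGFP, 3 of them higher (Pcdh8, Pcdh17, Pcdh19) and 2 lower (Pcdh10, Pcdh18), beside 15.9% and 24.0% of all genes. The Pcdh8 call was lost under 9 of 22 alternatives. Among them were cyclic loess, median centring and leaving out NesGFP replicate 3 (limma adjusted p = 0.0587, 0.0632 and 0.0663). It was also lost without PomcGFP replicate 2, where its difference was 0.29 (0.49 as reported). The Pcdh19 call was lost without NesGFP replicate 1 (limma adjusted p = 0.0508) or PomcGFP replicate 2. With only the lines compared, Pcdh8, Pcdh10 and Pcdh18 did not pass (limma adjusted p = 0.0902, 0.0522 and 0.0638), while Pcdh17 and Pcdh19 did. Pcdh19 (probe set 10606600), an X-linked gene whose mutation causes epilepsy and whose protein works together with N-cadherin, was at 7.38, 7.87 and 7.52 in NesGFP, 7.21, 6.94 and 6.64 in kiTbr2GFP, 7.47, 6.88 and 6.99 in tgTbr2GFP and 8.24 and 8.45 in PomcGFP. PomcGFP was above all other arrays, and the Tbr2 arrays ran below or into the NesGFP range. Pcdh19 was lower in the Tbr2 lines than in NesGFP (-0.57 ± 0.17, SE; limma adjusted p = 0.0147) and 2.50-fold higher in PomcGFP than in the Tbr2 lines (1.32 ± 0.19, SE; limma adjusted p = 0.00289). The second call was lost without PomcGFP replicate 2 (adjusted p = 0.0634), and the first without NesGFP replicate 2 (adjusted p = 0.0773), in each case the highest of its alternatives. The mean of 3 Y-linked genes ran from 5.05 to 9.04 within tgTbr2GFP, and the sex of the animals is not given in the labels. With that mean as a covariate both Pcdh19 calls passed.

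Pcdh17, which brings actin regulators to contacts between growing axons, was at 7.58, 8.61 and 8.11 in NesGFP, 8.11, 7.80 and 8.19 in kiTbr2GFP, 8.55, 8.36 and 8.66 in tgTbr2GFP and 9.23 and 9.17 in PomcGFP. PomcGFP was above all other arrays. The excess over the Tbr2 lines was 0.93 ± 0.22 (SE; limma adjusted p = 0.0378), and leaving out any 1 array of the Tbr2 or PomcGFP lines ended the call, with adjusted p from 0.0592 (without kiTbr2GFP replicate 3) to 0.284 (without PomcGFP replicate 1) and up to 0.292 over all alternatives. Pcdh18 was at 7.50, 6.98 and 7.15 in NesGFP, 6.62, 6.70 and 6.67 in kiTbr2GFP, 6.73, 6.76 and 6.47 in tgTbr2GFP and 6.45 and 6.73 in PomcGFP. NesGFP was highest and the other lines overlapped. Pcdh18 was lower in the Tbr2 lines by a factor of 1.47 (-0.55 ± 0.13, SE; limma adjusted p = 0.00348) and in PomcGFP by 1.54 (-0.62 ± 0.16, SE; limma adjusted p = 0.0102), the latter lost without PomcGFP replicate 1 (adjusted p = 0.11, the highest of its alternatives). Pcdh10, a delta-2 protocadherin of axon guidance, was lower in PomcGFP than in NesGFP (-0.57; limma adjusted p = 0.00642); its PomcGFP arrays, at 8.40 and 8.43, were below all other arrays, which ran from 8.68 to 9.14. Pcdh12, an endothelial protocadherin, stayed between 6.44 and 6.83 on all 11 arrays and passed no test. Its values lay between the 25th percentile and the median of every array. The endothelial list had a median of -3.32 for the Tbr2 lines minus NesGFP, and its part in the Pcdh12 values was not tested.

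**Figure D3:**
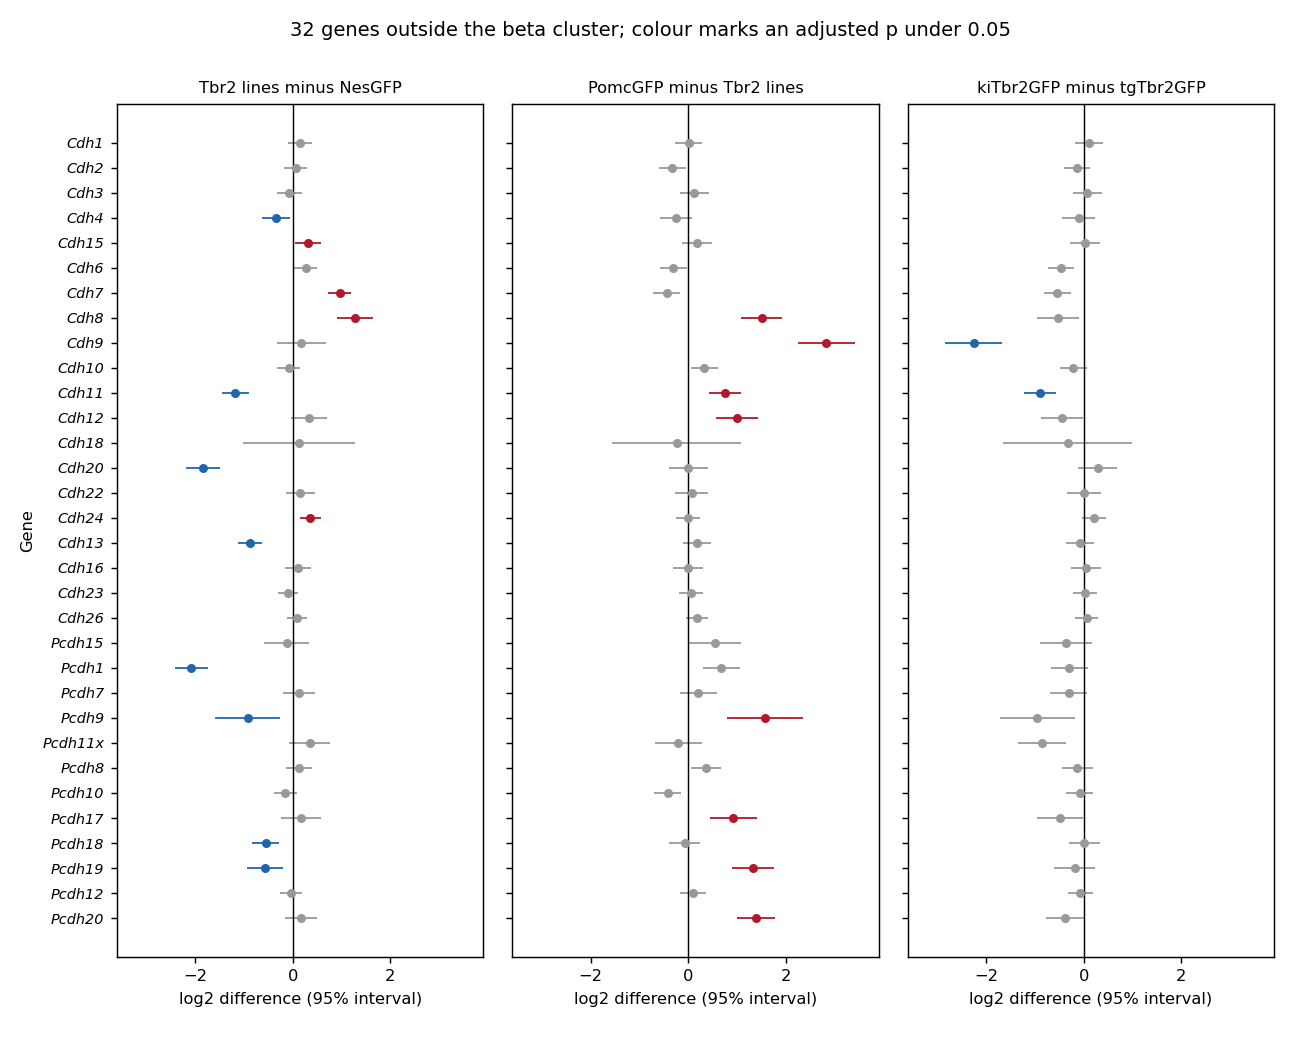
Difference between lines for the 32 tested genes outside the beta cluster, on the log2 scale, with 95% intervals, for the Tbr2 lines minus NesGFP, PomcGFP minus the Tbr2 lines and kiTbr2GFP minus tgTbr2GFP; red and blue points passed the test as higher and lower, grey ones did not pass. Genes past the test number 4 higher and 8 lower in the first comparison, 8 higher and 0 lower in the second, and 0 higher and 2 lower in the third. Of all genes, 19.8% were higher and 29.1% lower in the first, 2.0% and 1.73% in the second, and 0.436% and 0.684% in the third.

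The 22 beta-cluster protocadherins, the subfamily with the most members among the 56 genes, were the main part of the increase from NesGFP to the Tbr2 lines. No gamma-cluster gene is among the 56, and the alpha cluster had only a probe set shared by 14 genes, so neither was compared with them. Of the 22, 15 were higher in the Tbr2 lines (19.8% of all genes), 1 was lower (Pcdhb10; 29.1% of all genes) and 6 did not pass, with a median difference of 0.54 and 20 differences above 0. In PomcGFP against NesGFP, 13 were higher and 0 lower (15.9% and 24.0% of all genes), with a median of 0.69. None of the 22 passed between PomcGFP and the Tbr2 lines, where the differences ran from -0.19 to 0.51 around a median of 0.00, nor between kiTbr2GFP and tgTbr2GFP, with a median of 0.06. At an unadjusted limma p under 0.05 there were 2 in each of these comparisons. At the level of the cluster's mean, the NesGFP arrays were at 6.57 to 6.81 and all other arrays at 7.21 to 7.39. Beta-cluster genes are near-copies of each other, so their probe sets can share signal and the 22 values are not independent; each gene's value is uncertain to that extent. The endothelial, mural, astrocyte and oligodendrocyte lists were highest on the same 3 arrays on which the cluster was lowest, and their part in the difference was not tested.

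Single beta-cluster genes differed widely in the size of the step. Pcdhb16 (probe set 10455108) was at 6.72, 6.51 and 5.41 in NesGFP, 8.22, 7.85 and 7.76 in kiTbr2GFP, 7.90, 8.05 and 7.72 in tgTbr2GFP and 7.75 and 8.05 in PomcGFP. Pcdhb18 (probe set 10455118) was at 6.70, 6.10 and 6.25 in NesGFP, 8.03, 8.13 and 8.15 in kiTbr2GFP, 8.12, 8.13 and 7.63 in tgTbr2GFP and 7.74 and 8.16 in PomcGFP. In both genes NesGFP lay below every other array and the other 3 lines overlapped. Pcdhb16 was above the 25th percentile on 2 of 3 NesGFP arrays, so its differences from NesGFP are read as lower bounds. The Tbr2 lines were 3.25-fold above NesGFP for Pcdhb16 (1.70 ± 0.24, SE; limma adjusted p = 0.00014) and 3.21-fold above it for Pcdhb18 (1.68 ± 0.16, SE; limma adjusted p = 6.11e-06). For PomcGFP minus NesGFP the differences were 1.69 ± 0.32 (SE; limma adjusted p = 0.00138) and 1.60 ± 0.21 (SE; limma adjusted p = 0.000115).

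Pcdhb17 was at 6.65, 7.47 and 7.44 in NesGFP, 8.76, 8.70 and 8.24 in kiTbr2GFP, 8.17, 8.23 and 8.18 in tgTbr2GFP and 8.44 and 8.33 in PomcGFP, again with NesGFP below all others. Its increase in the Tbr2 lines was 2.29-fold (1.19 ± 0.18, SE; limma adjusted p = 0.000199). Pcdhb7 was at 7.63, 6.15 and 6.26 in NesGFP, 8.21, 7.63 and 7.43 in kiTbr2GFP, 8.18, 7.98 and 7.53 in tgTbr2GFP and 8.13 and 7.49 in PomcGFP, so that the first NesGFP array lay within the range of the other lines. Its difference was 1.14 ± 0.32 (SE; limma adjusted p = 0.0105) for the Tbr2 lines and was lost without NesGFP replicate 2 (adjusted p = 0.0593, the highest of its alternatives). The other 11 beta-cluster genes that rose in the Tbr2 lines did so by 0.43 to 0.77. The call was lost under 15 of 23 alternatives for Pcdhb13, 12 of 24 for Pcdhb14 and 6 of 24 for Pcdhb3. It was never lost for Pcdhb8, Pcdhb11, Pcdhb15 and Pcdhb21. Pcdhb5 was above the 25th percentile on 1 NesGFP array, and its difference with tgTbr2GFP alone was 0.24 (limma adjusted p = 0.301). Pcdhb21, another of these 11 genes, was at 5.27 to 5.47 in NesGFP and 6.07 to 6.29 on the Tbr2 arrays. Pcdhb21 passed the filter on dim values through the Tbr2 arrays alone. Without it the counts of genes higher in the Tbr2 lines were 14 of 21 in the cluster and 18 of 53 in all. It was below that percentile in both PomcGFP and NesGFP, and without it 12 of 21 genes of the cluster were higher in PomcGFP than in NesGFP. Pcdhb12 had the widest spread of all 54 genes within a line, 5.28 to 8.27 over the NesGFP arrays, and did not pass.

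Pcdhb10 went the other way, at 7.80, 8.20 and 8.34 in NesGFP, 7.76, 7.33 and 7.67 in kiTbr2GFP, 7.52, 7.75 and 7.87 in tgTbr2GFP and 7.74 and 7.84 in PomcGFP. The groups overlapped, and the difference of -0.46 (limma adjusted p = 0.0184) was lost without NesGFP replicate 2 or 3 (adjusted p = 0.0652 and 0.0755, the latter the highest of its alternatives). The cluster's count in PomcGFP against NesGFP rested on both PomcGFP arrays: it was 5 without replicate 1 and 7 without replicate 2, with medians of 0.56 and 0.56. With any 1 array left out, 12 to 15 of the 22 genes were higher in the Tbr2 lines than in NesGFP.

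**Figure D4:**
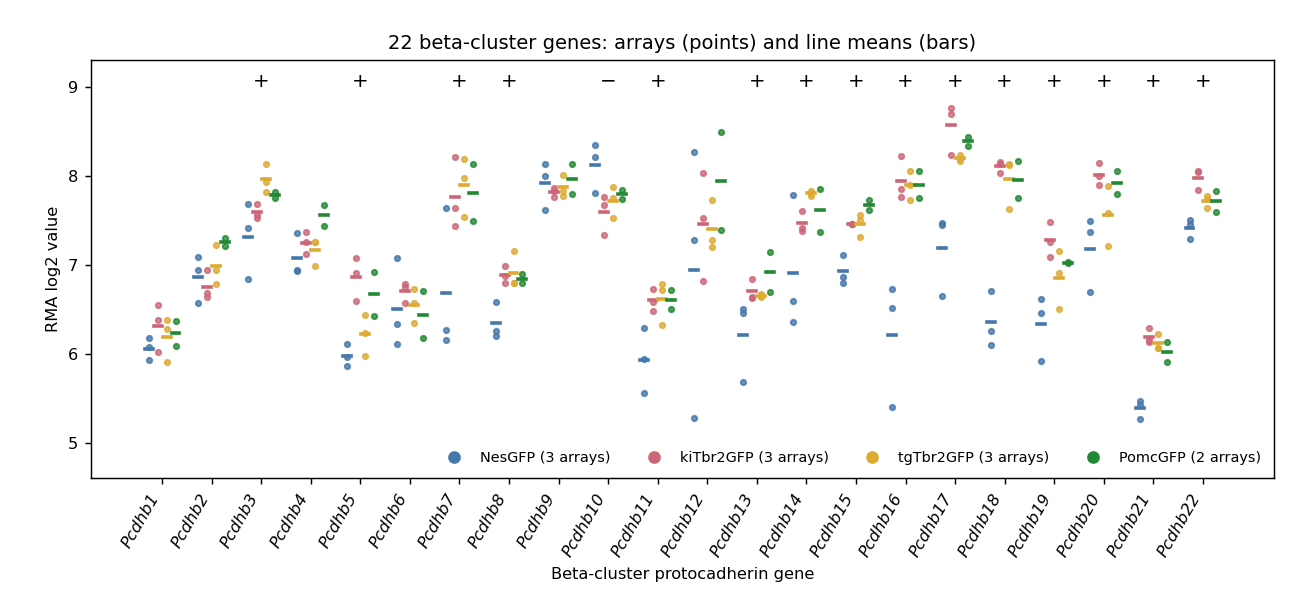
Log2 value of the 22 beta-cluster genes on each array (points) with line means (bars), 3 arrays per line and 2 for PomcGFP; plus signs mark the 15 genes higher and the minus sign the 1 gene lower in the Tbr2 lines than in NesGFP. The 3 other lines lie close together while the NesGFP means are lower for most genes.

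The knock-in and transgenic Tbr2 reporters differed in Cdh9 and Cdh11. Cdh9 was lower in kiTbr2GFP, where it was below the 25th percentile on all 3 arrays, than in tgTbr2GFP (-2.25 ± 0.26, SE, read as a lower bound of the size; limma adjusted p = 0.00553), and the call held under all 22 alternatives run. Cdh11 was lower by a factor of 1.85 (-0.89 ± 0.15, SE; limma adjusted p = 0.0156); its call was lost without kiTbr2GFP replicate 1, kiTbr2GFP replicate 3 or tgTbr2GFP replicate 1, with adjusted p of 0.0878, 0.0785 and 0.0503, the first being the highest of its alternatives. The arrays of the lines did not overlap for either gene. Another 10 of the 54 genes were also below tgTbr2GFP on every kiTbr2GFP array without passing the test, and 5 were above it, beside 9.38% and 7.78% of all genes for these 2 directions. Between these lines 0.436% of all genes were called higher and 0.684% lower in kiTbr2GFP. Dividing-cell markers were at 8.64 to 8.79 in kiTbr2GFP and 7.72 to 7.86 in tgTbr2GFP (5 of 7 higher). Intermediate progenitor markers were at 9.34 to 9.53 and 8.89 to 9.07 (1 of 7 higher). Astrocyte markers were at 7.96 to 8.26 and 8.46 to 8.98 (2 of 10 lower, 8 at an unadjusted p under 0.05), and Cajal-Retzius markers at 8.46 to 8.53 and 8.56 to 9.24. Their part in the Cdh9 and Cdh11 differences was not tested. The Tbr2 mean therefore hides a difference for these genes, and PomcGFP minus tgTbr2GFP alone was 1.70 for Cdh9 (limma adjusted p = 0.0173), where PomcGFP minus kiTbr2GFP was at least 3.96 (limma adjusted p = 3.85e-05).

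Genes that work with cadherins were read from 5 lists. Of 18 catenin and junction partners, which tie cadherins to actin, 3 were higher and 12 lower in the Tbr2 lines than in NesGFP (median -0.39), beside 19.8% and 29.1% of all genes, the shares that hold for each list in this comparison. Vcl, the actin linker vinculin, was at 9.67, 9.68 and 9.23 in NesGFP and 6.82 to 7.77 on all other arrays, a decrease of 4.49-fold in the Tbr2 lines (-2.17 ± 0.15, SE; limma adjusted p = 6.6e-07). Among 8 cadherin-processing genes 1 was higher and 6 lower (median -0.82). In PomcGFP against NesGFP the largest decreases were Capn2, a calpain protease (-2.10; limma adjusted p = 1.25e-06), and Wasf2, a WAVE actin regulator (-2.11; limma adjusted p = 1.48e-05). Capn2 was at 10.21 to 10.52 in NesGFP and 8.14 and 8.38 in PomcGFP, and Wasf2 at 9.75 to 10.18 and 7.71 and 8.03.

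The list of genes that control the clustered protocadherins moved the other way. These genes encode the insulator protein CTCF, the cohesin ring and its regulators, and silencing factors of the cluster. In the Tbr2 lines 7 of 11 were higher than in NesGFP and 0 lower (19.8% and 29.1% of all genes), with a median of 1.49 (all genes -0.02): Smc1a, Smc3, Stag1, Stag2, Nipbl, Wapl and Smchd1. The cohesin loader Nipbl was at 7.95, 8.18 and 8.24 in NesGFP and between 10.04 and 10.45 on all other arrays (2.17 ± 0.10, SE; limma adjusted p = 4.72e-08). Ctcf itself differed by 0.29 and did not pass (limma adjusted p = 0.118), nor did the cohesin subunit Rad21 (0.15; limma adjusted p = 0.311). Between PomcGFP and the Tbr2 lines 0 of the 11 passed limma's test (1 at an unadjusted p under 0.05, Rad21). The marker lists of vessels and glia separated the same 3 NesGFP arrays from the rest, and their part in these differences was not tested.

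Of 16 other cadherin superfamily genes outside the naming rule, 4 were higher and 2 lower in the Tbr2 lines than in NesGFP (19.8% and 29.1% of all genes). Fat3, a giant cadherin of dendrite shape, was at 7.59, 8.87 and 7.49 in NesGFP, 10.58, 10.46 and 10.20 in kiTbr2GFP, 10.96, 11.68 and 11.37 in tgTbr2GFP and 10.28 and 9.77 in PomcGFP. It was higher by 2.89 ± 0.28 in the Tbr2 lines (SE; limma adjusted p = 6.82e-06) and by 2.04 in PomcGFP (limma adjusted p = 0.000979) than in NesGFP. Of 11 protocadherin effectors, the WAVE complex and kinases below protocadherins, 1 was higher and 7 lower in the Tbr2 lines than in NesGFP, and 4 were higher in PomcGFP than in the Tbr2 lines (2.0% of all genes). These were Ptk2b, a focal adhesion kinase (2.07 ± 0.21, SE; limma adjusted p = 0.000359), Wasf1 (0.70; limma adjusted p = 0.00882), Nckap1 (0.68; limma adjusted p = 0.00852) and Cyfip2. Ptk2b was at 9.68 and 9.32 in PomcGFP and 6.73 to 7.87 on the Tbr2 arrays, with NesGFP between at 8.28 to 8.93. Wasf1 and Nckap1, subunits of the WAVE complex that Pcdh10, Pcdh17 and Pcdh19 are known to recruit, were at 9.82 to 9.91 and 10.66 to 10.71 in PomcGFP and no higher than 9.50 and 10.14 on the Tbr2 arrays. Among marker lists, 3 of 9 granule neuron, 2 of 9 oligodendrocyte and 3 of 8 microglia genes were higher in PomcGFP than in the Tbr2 lines, beside 2.0% of all genes. In the same comparison 5 of 7 dividing-cell, 4 of 7 intermediate progenitor and 3 of 6 Cajal-Retzius genes were lower, beside 1.73% of all genes. The part of these markers in the 8 cadherin increases was not tested.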

How the data were processed

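Sorted cells of 4 reporter lines were profiled on 11 arrays of the Affymetrix Mouse Gene 1.0 ST type. Per the submitters' processing notes, the authors summarised the scans with RMA in oligo (version not given in the sources used here). The deposited table holds 1 value per probe set and array, read as log2 because RMA gives log2 and no value contradicts it, with array medians of 7.00 to 7.15.

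The platform annotation, which can be old, names exactly 1 gene for 21789 of 28858 probe sets and several for 1621; only the former were used. All 56 genes matched RefSeq by Entrez number. The brightest probe set stood for a gene, kept if above the array's 25th percentile on at least 2 arrays. Subfamilies were assigned by hand. A cell-means model of the 4 lines on all 11 arrays was fitted with limma 3.58.1 in R 4.3.3 (7 residual and 4.22 prior degrees of freedom), with two-sided moderated tests, an F test, and Benjamini-Hochberg adjustment over 16527 genes. The fit was tested on simulated data. Figures used Python 3.11.15 and matplotlib 3.10.9.

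Alternatives were other filters, probe set means, cyclic loess, median centring, another prior, array weights, a replicate block, a Y-linked covariate, fits of the compared lines alone, either Tbr2 line alone and leaving out each array; quantile normalization was added after seeing the data. The genes and lists were chosen with earlier results of these data known. Named with values on every array were, per comparison, up to 5 genes of each direction past the test with the largest differences, and the 3 largest among partner genes; a few others were named after their values were seen.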

Additional observations from a re-analysis of the deposited data

Results flagged for a closer look

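Cdh9 and Cdh11 were picked out because the 2 Tbr2 reporter lines differed in their distance from NesGFP, by a test of that difference. Cdh9 was lower than NesGFP in kiTbr2GFP (-0.95; limma adjusted p = 0.012) and higher than NesGFP in tgTbr2GFP (1.30; limma adjusted p = 0.00206), and the difference between these effects was -2.25 ± 0.26 (SE; limma adjusted p = 0.00553). The kiTbr2GFP values of Cdh9 were below the 25th percentile of their arrays, so the sizes against that line are lower bounds. All 3 kiTbr2GFP arrays lay below all 3 NesGFP arrays, and all 3 tgTbr2GFP arrays above them. Cdh11 was lower than NesGFP in both lines, with differences of -1.62 in kiTbr2GFP (limma adjusted p = 5.21e-06) and -0.73 in tgTbr2GFP (limma adjusted p = 0.00191), with a difference of -0.89 ± 0.15 (SE; limma adjusted p = 0.0156). Since the NesGFP arrays are common to both effects, this is the same test as kiTbr2GFP against tgTbr2GFP. No group has 4 or more arrays, so single arrays could not be tested as outliers.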

How the results depend on the processing

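No call for any of these genes turned its direction under the alternatives run. Of the calls, 14 of 28 for the Tbr2 lines against NesGFP, 3 of 8 for PomcGFP against the Tbr2 lines, 13 of 29 for PomcGFP against NesGFP and 1 of 2 between the Tbr2 lines held under every alternative. The count of genes lower in the Tbr2 lines than in NesGFP was 5 with tgTbr2GFP alone (9 as reported). The 8 genes higher in PomcGFP than in the Tbr2 lines became 4 with the replicate block (Cdh8, Cdh9, Pcdh19, Pcdh20) and 4 with tgTbr2GFP alone. Of all genes, 1.49% and 0.545% were higher in these 2 fits (2.0% as reported). The block moved no other count by over 1.5 times. The adjusted p of the 4 lost calls was 0.0534 for Cdh11, 0.0569 for Cdh12, 0.0865 for Pcdh9 and 0.0761 for Pcdh17. The labels give no meaning to the replicate numbers, and same-numbered arrays had correlations of -0.106 to 0.262 over 15 pairs, 4 of them over 0.1 (0.122 for replicate 1 and 0.134, 0.154 and 0.262 for replicate 3), so the numbers were not taken to pair the arrays. Without PomcGFP replicate 1 the genes higher in PomcGFP than in the Tbr2 lines were 4 (0.467% of all genes) and without replicate 2 they were 3 (0.782%). For genes lower in PomcGFP than in the Tbr2 lines (0 as reported) the count was 1 with cyclic loess, the Y-linked covariate, quantile normalization or tgTbr2GFP alone (Cdh7 each time), 1 with only the lines compared (Pcdh10) and 3 with array weights (Cdh2, Cdh7, Pcdh10). The 23 genes higher in PomcGFP than in NesGFP became 15 with median centring and 13 with only the lines compared, and 12 without either PomcGFP array; the 6 lower became 3 with only the lines compared. With array weights 3 genes were higher and 7 lower in kiTbr2GFP than in tgTbr2GFP (0 and 2 as reported). The calls over all 16527 genes moved as well. With array weights they were 561 higher and 832 lower between the Tbr2 lines (72 and 113 as reported). For PomcGFP above NesGFP they were 2136 with median centring and 1658 with only the lines compared (2624 as reported). For PomcGFP below NesGFP they were 2824 with only the lines compared (3967 as reported). The cause of these changes was not tested. Leaving out each array in turn gave 24 to 28 genes for the F test, 15 to 20 higher and 6 to 9 lower in the Tbr2 lines than in NesGFP, 3 to 8 higher and 0 to 1 lower in PomcGFP than in the Tbr2 lines, 12 to 23 higher and 5 to 7 lower in PomcGFP than in NesGFP, and 0 to 0 higher and 1 to 3 lower in kiTbr2GFP than in tgTbr2GFP; the 1 came without kiTbr2GFP replicate 1 or 3. With 1 PomcGFP array left, that array is assumed to vary like the other lines. Of the 22 beta-cluster genes, 14 were higher in the Tbr2 lines than in NesGFP under cyclic loess, 12 under median centring and 14 under quantile normalization, and in PomcGFP than in NesGFP 9, 7 and 8 (15 and 13 as reported). The lowest counts for the Tbr2 lines were 11 with the Y-linked covariate and 10 with tgTbr2GFP alone. In PomcGFP against NesGFP, 6 were higher with only the lines compared. The number of arrays limits the precision, and probes of near-identical beta-cluster genes may share signal.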

Other observations

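Some cadherin probe sets name several genes and took no part in the tests. A probe set for 14 alpha-cluster protocadherins, which share their last exons, had a NesGFP mean of 6.72 ± 0.22 (SD, n = 3). The kiTbr2GFP mean was 7.15 ± 0.02 and that of tgTbr2GFP 7.15 ± 0.03 (SD, n = 3 each), and PomcGFP was at 7.31 ± 0.07 (SD, n = 2). Its NesGFP mean was the lowest of the lines, as for most beta-cluster genes; it cannot tell the 14 genes apart and was not tested. A set of 3 probe sets is annotated to Cdh11 together with 2 unnamed transcripts. Their NesGFP means of 10.18, 8.91 and 9.61 lay below the kiTbr2GFP means of 11.61, 10.47 and 11.12 and the tgTbr2GFP means of 11.71, 10.57 and 11.28, whereas the probe set of Cdh11 alone was highest in NesGFP. Which transcript these probe sets read was not tested.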
